A study of Homo sapiens with 6 samples.

Results

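The EGR and AP-1 immediate early factors examined here are 10 genes: EGR1, EGR2, EGR3, FOS, FOSB, FOSL1, FOSL2, JUN, JUNB and ATF3. They were chosen by name, with earlier results of these data known. A gene was taken as measured where a probe set of the array carried its symbol and no other, and the brightest such probe set over all arrays stood for it. Of the 10, 9 were measured, each by 1 probe set, among 18417 genes measured in all, and EGR2 was not analysed here. The cells were H358, an established human non-small cell lung cancer line, profiled on 6 Affymetrix arrays. One group stably expressed green fluorescent protein (GFP, 3 arrays) and the other stably expressed TwistER (3 arrays), the name used for a Twist transcription factor joined to the hormone-binding part of the estrogen receptor. Both groups received 100 nM 4-hydroxytamoxifen (4OHT), the ligand of that receptor part, for 12 days. The sample titles call the GFP cultures before and the TwistER cultures after epithelial-mesenchymal transition (EMT), the passage of epithelial cells to a motile, fibroblast-like state. No TwistER culture without 4OHT was among the arrays, so activation of the construct and other differences between the lines cannot be told apart. The labels name neither the promoter of the inserted genes nor whether a line was a pool or 1 clone.

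Immediate early genes are transcribed within minutes of a growth factor, stress or adhesion signal, without new protein synthesis. Their promoters are reached largely through MAP kinases, which phosphorylate ternary complex factors bound with serum response factor at CArG boxes, and CREB and ATF proteins at cAMP response elements. EGR proteins are zinc finger factors that bind GC-rich sites. AP-1 is a dimer of basic leucine zipper proteins: JUN proteins pair with each other or with FOS proteins, FOS proteins need a JUN partner, and ATF3 pairs with several of them. In carcinoma cells AP-1 is known for its part in proliferation, invasion and matrix remodelling, and its output depends on which subunits are present.

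The results turn on EGR1, JUN and JUNB, so the 250 bases before the transcription start of these genes are shown, from RefSeq on GRCh38.p14, each read 5′ to 3′ on the strand of its gene. They lie at chr5:138465229-138465478 on the plus strand for EGR1, chr1:58784048-58784297 on the minus strand for JUN and chr19:12791236-12791485 on the plus strand for JUNB. Capitals mark matches, on either strand, to the CArG box, to TGANNTCA, to TGAGTCA or to GCGNGGGCG. The second of these is the palindromic frame of CRE and related 8-base elements, the next the AP-1 element, and the last an EGR site.
EGR1: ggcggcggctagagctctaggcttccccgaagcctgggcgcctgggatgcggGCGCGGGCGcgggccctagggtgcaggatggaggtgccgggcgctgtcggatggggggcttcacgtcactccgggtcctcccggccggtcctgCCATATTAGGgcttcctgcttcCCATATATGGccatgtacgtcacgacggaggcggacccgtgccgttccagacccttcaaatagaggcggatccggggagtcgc
JUN: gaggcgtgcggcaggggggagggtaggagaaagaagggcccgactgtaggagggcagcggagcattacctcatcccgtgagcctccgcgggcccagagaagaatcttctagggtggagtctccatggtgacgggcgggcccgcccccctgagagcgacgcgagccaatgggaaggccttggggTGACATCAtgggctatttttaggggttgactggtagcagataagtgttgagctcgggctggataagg
JUNB: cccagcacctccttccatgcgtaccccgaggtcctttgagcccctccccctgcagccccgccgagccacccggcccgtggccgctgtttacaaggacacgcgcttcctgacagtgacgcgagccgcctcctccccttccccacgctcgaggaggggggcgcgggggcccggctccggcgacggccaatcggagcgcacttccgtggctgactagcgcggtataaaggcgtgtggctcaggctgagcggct

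The EGR1 window held 2 CArG boxes, a motif found in 1.16% of the 35116 promoter windows of this length in the table. The more distant one began 105 bases before the start and the nearer one 83 bases before it. The EGR1 window also held 1 match to GCGNGGGCG, 198 bases before the start, a motif found in 8.41% of all windows. The JUN window held 1 match to TGANNTCA (10.1% of windows), TGACATCA, which began 67 bases before the start. The JUNB window held none of these 4 motifs, of which TGAGTCA was found in 4.2% of all windows. The short CRE core TGACG, which can overlap TGANNTCA, occurred 2 times in the EGR1 window and 1 time in each of the JUN and JUNB windows, and in 21.2% of all windows. CANNTG, the E-box bound by basic helix-loop-helix factors such as Twist, was found in 61.8% of all windows and in none of these 3. Among the other genes of the set that were searched, FOS, FOSB and FOSL2 held the core TGACG. One ATF3 window of 2 held TGACATCA, and 1 of the 3 EGR2 windows held a CArG box and 2 copies of the core. E-boxes occurred 4 times in 1 ATF3 window and 1 time in FOSL2, in FOSB and in each EGR2 window. FOSL1 and EGR3 were not searched. A match is a string of letters and does not show that a factor was bound.

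EGR1 and JUN rose in TwistER cells and JUNB fell, while the other 6 factors measured did not pass the test. EGR1 was 2.64-fold higher (log2 difference 1.40 ± 0.15 SE, 3 arrays per group), JUN was 1.54-fold higher (0.62 ± 0.10) and JUNB was 1.61-fold lower (-0.68 ± 0.12). The arrays measured whole cultures, so more cells with a transcript and more transcript per cell cannot be told apart. The 3 called factors among the 9 stand beside 8.83% of all genes called by limma (Benjamini-Hochberg, adjusted p below 0.05), with 4.72% higher in TwistER and 4.11% lower. The median difference of the 9 was 0.24 and that of all genes was 0.01. In 6 of the 9 factors the TwistER and GFP arrays did not overlap, against 28.4% of all genes. Because the factors were chosen with earlier results of these data known, these shares are a description and no test of the set. Groups of 3 arrays set the precision throughout, and p-values measure the spread between cultures called biological replicates.

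**Figure D1:**
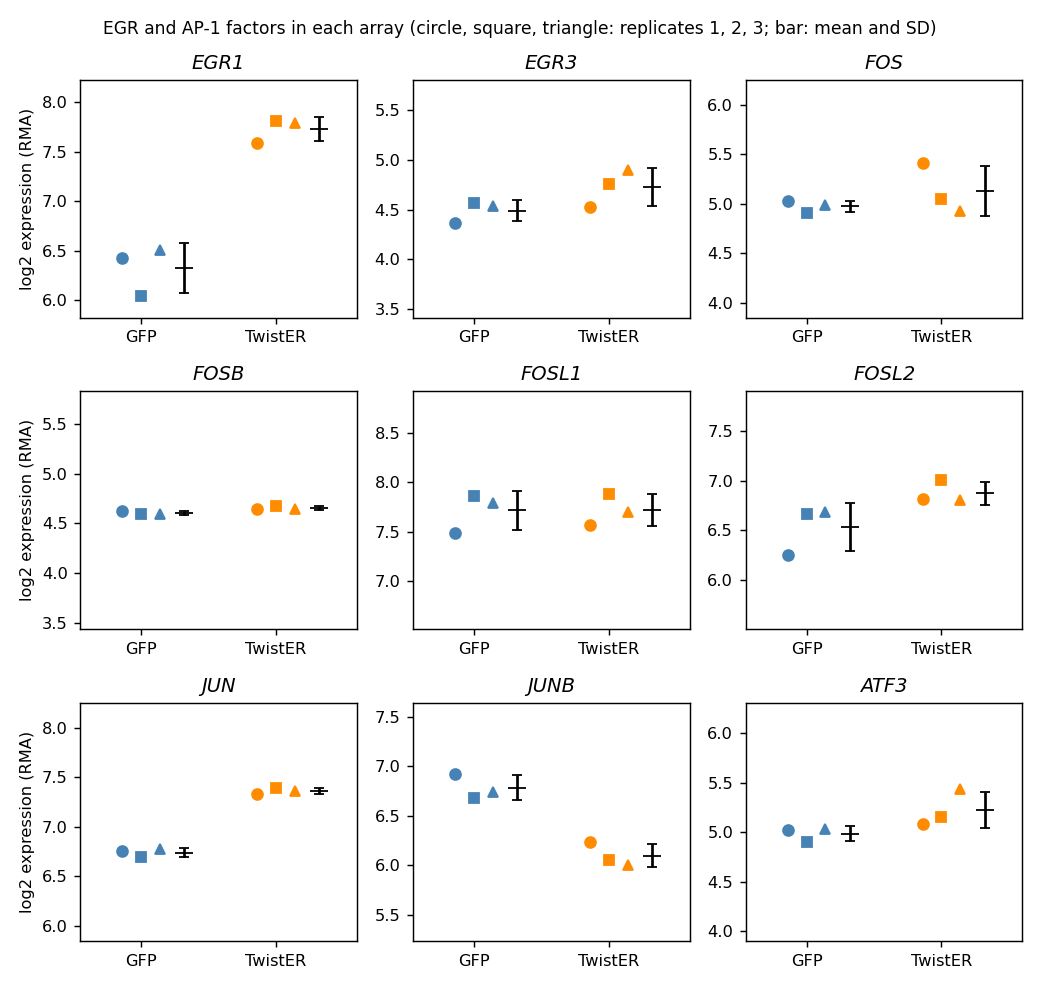
Log2 expression (RMA) of the 9 measured factors in each array, GFP in blue and TwistER in orange; circles, squares and triangles are replicates 1, 2 and 3, bars give the group mean and SD (n = 3), and every panel spans the same range of log2 units. EGR1 and JUN sit clearly above GFP in all TwistER arrays, JUNB clearly below, and FOSL1 at the same mean of 7.72 in both groups.

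EGR1 encodes the zinc finger factor that gives its family its name. Its log2 expression was 6.42, 6.04 and 6.51 in GFP and 7.58, 7.80 and 7.78 in TwistER. Every TwistER array was above every GFP array, and the gap between the highest GFP and the lowest TwistER value was 1.07, wider than the spread within either group. The means were 6.32 ± 0.25 and 7.72 ± 0.12 (SD, n = 3). The 95% interval of the fold was 2.09 to 3.33 and the limma adjusted p was 0.000656. By size of rise EGR1 ranked 132 of 18417 genes. The part of the CArG boxes in this rise was not tested.

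EGR3, a related factor that is itself a target of growth and antigen receptor signals, did not pass. It read 4.37, 4.56 and 4.54 in GFP and 4.52, 4.76 and 4.90 in TwistER. The groups overlapped, because TwistER replicate 1 lay below GFP replicates 2 and 3. The log2 difference was 0.24 ± 0.13 (limma adjusted p = 0.354), with a 95% interval of -0.06 to 0.54. EGR3 was among the dimmer genes, in the 32.3 percentile of mean brightness, where background light compresses differences.

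JUN and JUNB, the AP-1 subunits that can pair with each other and with all FOS proteins, moved in opposite directions. JUN, which activates transcription strongly, read 6.75, 6.69 and 6.78 in GFP and 7.33, 7.39 and 7.36 in TwistER. The groups were tight and apart: the SDs were 0.04 and 0.03 and the gap between the groups was 0.55. The 95% interval of the JUN fold was 1.31 to 1.80, with a limma adjusted p of 0.00578.

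JUNB, a weaker activator that can restrain JUN in its dimers, read 6.92, 6.68 and 6.74 in GFP and 6.23, 6.05 and 6.01 in TwistER. All TwistER arrays were below all GFP arrays, by a gap of 0.45. The JUNB mean went from 6.78 ± 0.13 to 6.10 ± 0.12 (SD, n = 3), 1.33- to 1.94-fold lower by its 95% interval, with a limma adjusted p of 0.00861. Without TwistER replicate 2 the JUNB difference was -0.66 and its limma adjusted p 0.0516, just above the threshold of 0.05. That omission left only 831 genes called in all, the fewest of any array left out.

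The opposite movement of JUN and JUNB could be followed within each array. The log2 value of JUN minus that of JUNB was -0.17, 0.01 and 0.04 in GFP and 1.10, 1.34 and 1.35 in TwistER. The shift between the groups was 1.30, a 2.47-fold change of the JUN to JUNB ratio. This shift follows from the calls of JUN and JUNB and is given as a description, with no test. The ratio within an array has no absolute meaning, since probe sets differ in their response, and only its shift is informative.

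The FOS proteins, which bind DNA only as partners of JUN proteins, showed no difference past the test. FOS read 5.02, 4.91 and 4.99 in GFP and 5.41, 5.05 and 4.93 in TwistER, so that TwistER replicate 1 was high and replicate 3 lay within the GFP range. The FOS log2 difference was 0.16 ± 0.14 (limma adjusted p = 0.608, 95% interval -0.17 to 0.48), and without TwistER replicate 1 it was 0.016. FOSB, the FOS relative best known from neurons, read 4.63, 4.59 and 4.60 in GFP and 4.64, 4.68 and 4.65 in TwistER. The FOSB groups did not overlap, but the gap was 0.01 and the difference 0.05 ± 0.10 (limma adjusted p = 0.840).

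FOSL1 and FOSL2 encode FRA1 and FRA2, FOS relatives that lack the strong activation domain of FOS. FRA1 is known as an AP-1 subunit of mesenchymal and invasive carcinoma cells. FOSL1 read 7.49, 7.86 and 7.79 in GFP and 7.57, 7.89 and 7.70 in TwistER. The groups overlapped throughout, and the FOSL1 difference was 0.00 ± 0.14, with a 95% interval from 0.80-fold to 1.25-fold and a limma adjusted p of 0.998. A change larger than these bounds is outside that interval, whereas a smaller one is within it and is not excluded. The FOSL1 difference turned to -0.11 (limma adjusted p = 0.609) when GFP replicate 1 was left out. It also turned to -0.08 without TwistER replicate 2, to -0.025 with median centring of the arrays and to -0.094 with array weights.

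FOSL2 was the factor nearest to the threshold among those that did not pass. It read 6.25, 6.66 and 6.68 in GFP and 6.81, 7.00 and 6.80 in TwistER. All TwistER arrays were above all GFP arrays, by a gap of 0.12, and GFP replicate 1 was 0.42 below the mean of the other GFP arrays. The FOSL2 difference was 0.34 ± 0.14, or 1.27-fold. In limma its p was 0.0437 before and 0.214 after adjustment. Leaving out GFP replicate 1 gave 0.20 and a limma adjusted p of 0.252.

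ATF3, a stress-induced basic leucine zipper factor that often represses its targets, read 5.02, 4.90 and 5.03 in GFP and 5.09, 5.15 and 5.43 in TwistER. The groups were apart by 0.06, and TwistER replicate 3 was the highest. The ATF3 difference of 0.24 ± 0.12 did not pass (limma adjusted p = 0.332, 95% interval -0.05 to 0.52). ATF3 also responds to the integrated stress response, the program set off by blocked translation initiation. Of 15 measured genes of that response, 1 rose and 0 fell, with a median of -0.02. The riser was VLDLR, a lipoprotein receptor (0.77 ± 0.13, limma adjusted p = 0.00639). With GFP replicate 1 left out, GADD45A (0.42, adjusted p = 0.0363) also rose and PSAT1 (-0.40, adjusted p = 0.0251) fell.

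**Figure D2:**
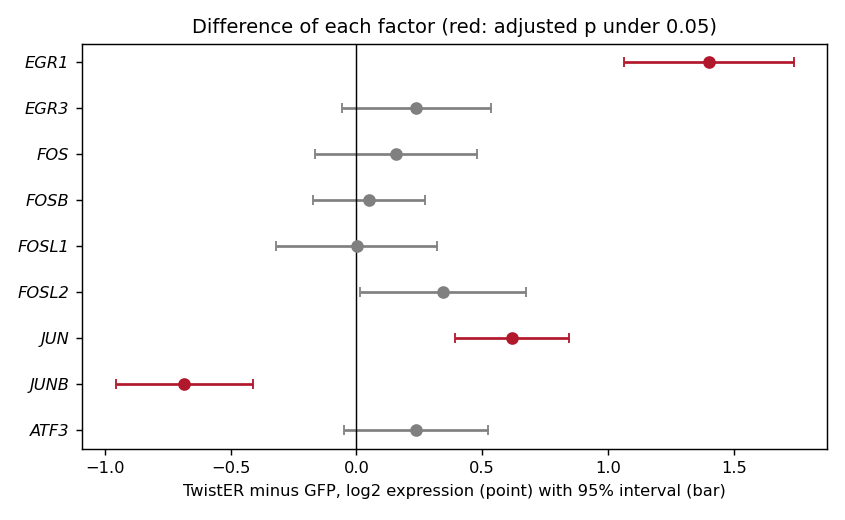
TwistER minus GFP difference in log2 expression of the 9 factors (points) with 95% intervals from limma (bars), 3 arrays per group; red marks an adjusted p under 0.05. EGR1 at 1.40, JUN at 0.62 and JUNB at -0.68 lie away from 0, and the interval of FOSL2 starts at 0.01.

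One GFP array stood apart, and cell type markers differed between the lines. Arrays correlated over genes at r = 0.993 to 0.996 within groups when GFP replicate 1 was left aside, at 0.982 to 0.983 for GFP replicate 1 with the other GFP arrays, and at 0.968 to 0.980 across groups. Leaving out GFP replicate 1 changed the number of genes called from 1627 to 2773, of which 1609 were shared. That is 15.1% of all genes, 6.97% higher and 8.09% lower in TwistER. EGR1, JUN and JUNB were called without GFP replicate 1, at 1.45, 0.63 and -0.61, with limma adjusted p-values of 0.00115, 0.00384 and 0.00807. Omitting GFP replicate 2 gave 1063 calls over all genes, and omitting TwistER replicate 1, 2 or 3 gave 912, 831 or 935. Of 8 epithelial markers 5 fell (8 without GFP replicate 1). The adhesion gene CDH1 led them, with a mean of 10.09 ± 0.48 in GFP against 5.09 ± 0.19 in TwistER (SD, n = 3). Only 4 fell without GFP replicate 2 or 3 or TwistER replicate 2, where KRT8 lost its call (limma adjusted p up to 0.0739). Of 8 fibroblast markers 2 rose and 1 fell: COL3A1 (2.13 ± 0.15), COL1A1 (0.54 ± 0.13) and LUM (-1.63 ± 0.18). Of 5 endothelial markers 2 rose, KDR (1.79 ± 0.12) and PECAM1 (0.61 ± 0.12). The call for COL1A1 did not hold with any array but GFP replicate 1 left out (limma adjusted p up to 0.142), nor that for PECAM1 without GFP replicate 2 or TwistER replicate 1 or 3 (up to 0.0765). Of 4 measured blood cell markers 0 rose and 0 fell in limma with all arrays (0 also at an unadjusted p under 0.05), and PTPRC rose without GFP replicate 1 (0.48, adjusted p = 0.0407, against 0.30 and 0.377 with all arrays). The median level of each of these lists in an array ran from 8.49 to 9.30 in GFP and 6.66 to 6.73 in TwistER for epithelial, 4.42 to 4.60 and 4.52 to 4.59 for fibroblast, 3.92 to 4.21 and 4.06 to 4.45 for endothelial, and 3.44 to 3.60 and 3.73 to 3.81 for blood cell markers. Array values have no true 0, and the part of other cells in the results was not tested.

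Other immediate early genes moved in both directions, as EGR1, JUN and JUNB did. Of 26 measured, 2 rose and 2 fell, and the median difference was 0.08. CCN1, a matricellular protein and target of serum response factor and YAP, went from 9.70 ± 0.15 in GFP to 10.55 ± 0.12 in TwistER (SD, n = 3), a rise of 0.85 ± 0.12 (limma adjusted p = 0.00334). KLF4, a zinc finger factor of differentiating epithelia, fell by 0.68 ± 0.11, from 6.67 ± 0.05 to 5.99 ± 0.13 (SD, n = 3, limma adjusted p = 0.00676). ZFP36L1, an RNA-binding protein that destabilises AU-rich transcripts, rose by 0.52 ± 0.12, and TRIB1, a pseudokinase that directs protein degradation, fell by 0.67 ± 0.15. Neither call held when any array but GFP replicate 1 was left out, with limma adjusted p-values up to 0.152 for ZFP36L1 and 0.122 for TRIB1. With GFP replicate 1 left out the list had 4 rises and 2 falls, the added ones being the phosphatase gene DUSP1 (0.46, limma adjusted p = 0.0151) and GADD45B (0.39, 0.0469). With all arrays DUSP1 was at 0.71 (limma adjusted p = 0.0631) and GADD45B at 0.36 (0.0896).

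Among the other basic leucine zipper partners that AP-1 proteins can have, 0 of 12 measured passed in limma (2 at an unadjusted p under 0.05), with a median of 0.13. The largest difference was that of ATF2, a partner of JUN at CRE sites, which read 9.34, 9.01 and 9.03 in GFP and 9.61, 9.61 and 9.52 in TwistER. The ATF2 groups did not overlap, and its difference of 0.46 ± 0.12 missed the threshold (limma adjusted p = 0.0570). This call turned on the processing: ATF2 passed in limma after a second quantile normalization (adjusted p = 0.0272), cyclic loess (0.0222), either brightness filter (0.0441 and 0.0374), a trended robust variance (0.0370) or array weights (0.0022), and not after median centring (0.115). CREB5 (0.27 ± 0.11), MAF (0.26 ± 0.13) and JDP2 (-0.18 ± 0.12), a repressor that pairs with JUN, followed. When GFP replicate 1 was left out, ATF2 (0.57, adjusted p = 0.00585) and MAF (0.38, adjusted p = 0.0319) were called in limma and no other member of the list was.

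Factors that act on immediate early promoters, and the EGR co-repressors, showed small differences. Of 10 measured, 0 passed in limma (2 at an unadjusted p under 0.05), and the median was 0.13. The largest were ELK3, a ternary complex factor that can repress at serum response elements (0.42 ± 0.14, adjusted p = 0.105), NAB1, a co-repressor of EGR proteins (0.40 ± 0.16, adjusted p = 0.190), the acetyltransferase CREBBP (0.26 ± 0.16) and the actin-responsive co-activator MRTFB (0.20 ± 0.17). ELK3 (0.54, adjusted p = 0.0139) and NAB1 (0.57, adjusted p = 0.0156) were called in limma once GFP replicate 1 was left out.

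In the RAS and MAP kinase list, which lies upstream of these factors, 1 of 21 measured genes rose and 3 fell (median difference -0.09). MAP2K1, which encodes the ERK kinase MEK1, fell from 8.63 ± 0.23 to 7.83 ± 0.10 (SD, n = 3), by 0.79 ± 0.14 (limma adjusted p = 0.00874). MAPK9, the JNK2 gene, whose product phosphorylates JUN, fell by 0.65 ± 0.12 (limma adjusted p = 0.0114). MAPK13, a p38 kinase of epithelia, read 5.73, 6.94 and 6.89 in GFP and 4.94, 5.10 and 5.39 in TwistER, a fall of 1.37 ± 0.30. RPS6KA2, a kinase activated by ERK, rose by 0.51 ± 0.13. MAP2K1 lost its call without TwistER replicate 2 (limma adjusted p = 0.0525) and MAPK9 without TwistER replicate 2 (0.0557) or 3 (0.0549). MAPK13 and RPS6KA2 lost theirs without any single array other than GFP replicate 1, with limma adjusted p-values up to 0.107 and 0.184. RPS6KA2 also lost its call after each of 3 rescalings of the arrays (limma adjusted p = 0.0628 to 0.0816), so that 0 genes of the list rose there. With GFP replicate 1 left out the list had 1 rise and 4 falls, the added one being MAP2K6 (-0.46, limma adjusted p = 0.0208). With all arrays MAP2K6 was at -0.41 (limma adjusted p = 0.0595).

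**Figure D3:**
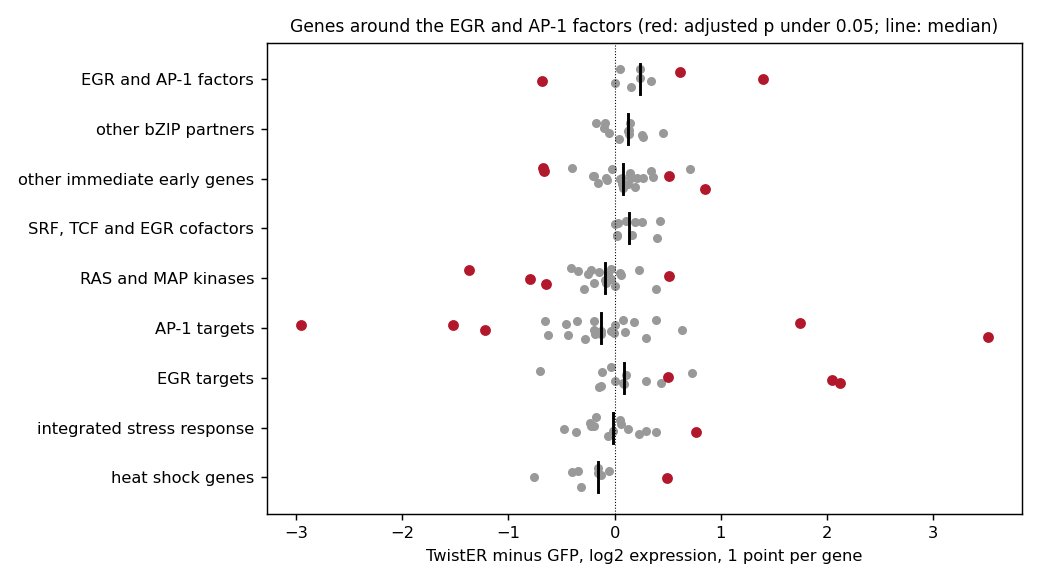
TwistER minus GFP difference in log2 expression for every measured gene of 9 lists (1 point per gene, spread vertically for legibility; line, list median; red, adjusted p under 0.05 in limma). Called genes lie on both sides of 0 in 4 lists, while the lists of other bZIP partners and of SRF, TCF and EGR cofactors hold none.

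Genes known from other systems as AP-1 targets moved in both directions. Of 25 measured, 2 rose and 3 fell, and the median difference was -0.13. PTGS2, the inducible cyclooxygenase, read 6.10, 5.91 and 5.96 in GFP and 9.45, 9.61 and 9.44 in TwistER, and rose by 3.51 ± 0.11 (limma adjusted p = 2.4e-06). The gap junction gene GJA1 rose by 1.75 ± 0.19. EREG, a ligand of the EGF receptor family, read 7.91, 7.94 and 8.10 in GFP and 4.84, 5.24 and 5.03 in TwistER and fell by 2.95 ± 0.13. LAMB3, a laminin chain of epithelial basement membrane, fell by 1.52 ± 0.28, a call lost without TwistER replicate 1 (limma adjusted p = 0.0574) or 2 (0.0622), and PHLDA1 also fell. The list had 2 rises and 8 falls without GFP replicate 1, with PLAUR, the urokinase receptor (-1.12), CCND1, cyclin D1 (-0.97), HMGA1 (-0.53), PLAU (-0.47) and LIF (-0.41) added. With all arrays these differences were smaller and did not pass in limma: PLAUR -0.66 (adjusted p = 0.328), CCND1 -0.63 (0.207), HMGA1 -0.35 (0.258), PLAU -0.18 (0.721) and LIF -0.19 (0.624).

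Genes known as EGR targets included 3 that rose and 0 that fell among 15 measured, with a median of 0.09. FN1, fibronectin, rose by 2.12 ± 0.22 and TNFSF10, the death ligand TRAIL, by 2.05 ± 0.18, both without overlap between the groups. TGFB1, which encodes transforming growth factor beta 1, rose by 0.50 ± 0.12 (limma adjusted p = 0.0312), but leaving out any array but GFP replicate 1 took the call away (limma adjusted p up to 0.140), as did median centring (0.0515). PDGFA, a platelet-derived growth factor chain, fell once GFP replicate 1 was left out (-1.10, limma adjusted p = 0.00542) and was at -0.70 with all arrays (0.245). NAB2, a co-repressor that EGR1 induces, was in this list and did not pass.

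Heat shock genes were examined because handling of cultures can induce them along with immediate early genes. Of 9 measured, 1 rose and 0 fell, with a median of -0.16. HSPA1A and HSPA1B were in the list but were not measured. The riser was SERPINH1, a collagen chaperone, by 0.49 ± 0.12, a call lost without any single array other than GFP replicate 1 (limma adjusted p up to 0.157). Of the 9, 8 had a difference below 0, beside 9005 of all 18417 genes. The chaperone genes DNAJB1 (-0.54), HSPE1 (-0.48) and HSPH1 (-0.35) fell without GFP replicate 1, and with all arrays were at -0.34, -0.76 and -0.40 (limma adjusted p = 0.285, 0.0731 and 0.0578). The part of handling in the values of EGR1, JUN and JUNB was not tested.

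The calls for EGR1 and JUN held in each of 15 other settings, including each array left out, and that for JUNB in 14. EGR1 ranged from 1.26 to 1.49 over them, JUN from 0.59 to 0.65 and JUNB from -0.75 to -0.61.

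**Figure D4:**
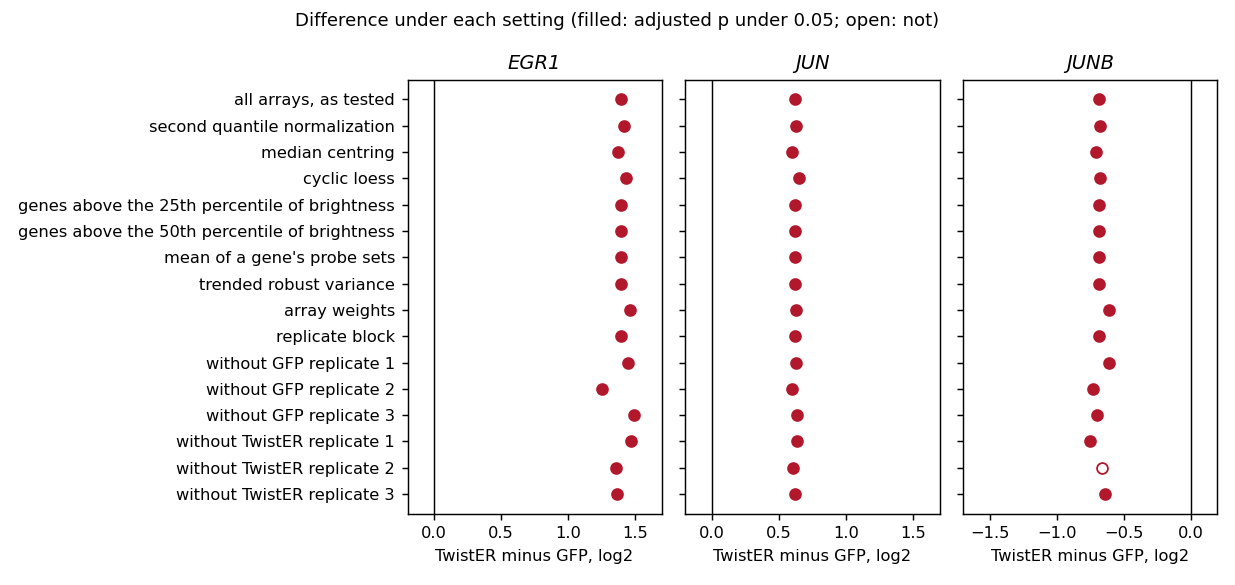
TwistER minus GFP difference in log2 expression of EGR1, JUN and JUNB as tested and under 15 other settings of normalization, filtering, variance model, pairing and arrays used; filled points have an adjusted p under 0.05 in limma. The only open point is JUNB without TwistER replicate 2.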

How the data were processed

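Per the labels' protocols, biotin-labelled material from total RNA of 6 cultures was put on Affymetrix arrays. The values deposited by the authors are log2 expression from RMA, per the submitters' processing notes, with version and settings not stated there. RMA equalises the distribution of intensities between arrays, so a shift of the whole transcriptome would not show. Of 33297 probe sets, 19460 had 1 gene symbol in the platform annotation supplied with the data, and the brightest per gene gave 18417 genes. Groups came from the treatment labels and replicate numbers from the titles.

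limma 3.58.1 (R 4.3.3; lmFit, then eBayes, 2-sided and without covariates) compared the groups, with Benjamini-Hochberg adjustment over all 18417 genes. Folds are powers of 2 of the log2 difference, SE and 95% intervals are limma's, and rose or fell means an adjusted p under 0.05. The step was tested on simulated data with independent noise, no outlying array, and shifts larger than the JUN and JUNB differences. That test therefore does not bear on calls of their size. The factors and the gene lists, written from general knowledge, were chosen with earlier results of these data known. Named are all measured factors, up to 4 genes of each pathway list with the largest difference (those past the threshold where there were any), and markers. Genes that gained a call when GFP replicate 1 was left out, PHLDA1 and NAB2 were named after their values were seen. Promoter sequences came from RefSeq (GRCh38.p14), and 250 bases before the start were searched for 8 of the 10 factors, matched by symbol. Entries on chromosome 8, where EGR3 lies, were left out for the factors but not from the windows of all promoters. Python 3.11.15 and matplotlib 3.10.9 made tables and plots.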

Additional observations from a re-analysis of the deposited data

How the results depend on the processing

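The settings tried were other scalings (quantile again, medians, cyclic loess), brightness filters at percentiles 25 and 50, averaged probe sets, a variance trend with robust fitting, weighted arrays, a replicate block, omission of each array, and thresholds of 0.01 and 0.10. In all of them EGR1 and JUN were the 2 factors called higher. JUNB was called lower in all but one, so that 1 factor fell, and 0 without TwistER replicate 2. The number of genes called, 1627, was 3268 with array weights, 807 at an adjusted p under 0.01, and 831 to 2773 with 1 array left out. FOSL1, at 0.00, reversed to -0.025 with median centring and -0.094 with array weights, and was -0.11 to 0.076 with 1 array left out, without a call; its difference is not distinguishable from 0. Same-numbered arrays of the groups deviated together at r = 0.14, 0.02 and 0.16 over genes, and not every array correlated best with its own number, so they were taken to share only a number; with the replicate number as a block 1592 genes were called, with EGR1 (limma adjusted p = 0.00252), JUN (0.0190) and JUNB (0.0126) among them. Of the other genes named, the block ended the calls of RPS6KA2 (0.0764), TGFB1 (0.0635) and SERPINH1 (0.0691). Array weights called ATF2, MAF, ELK3, NAB1 and PTPRC, among others, and the averaged probe sets ended the call of PECAM1 (0.0532). With array weights 8 AP-1 targets fell, 5 other immediate early genes rose and 3 heat shock genes fell, against 3, 2 and 0 unweighted. Counts of list members without GFP replicate 1, and the counts of factors whose groups do not overlap, were added after seeing the data. Dim signals limit what can be seen for EGR3, FOS, FOSB and ATF3, all below the median brightness of the genes tested.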
